A study of Homo sapiens with 12 samples.

Results

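NEAT1, MALAT1, PVT1 and LINC-PINT are long noncoding RNA genes, transcribed by RNA polymerase II into RNAs that are not translated into a known main protein. They were taken by name from a gene count table of lung cancer cells, where all 4 were present among 16599 genes and all 4 were among the 15991 genes tested. The genes were picked with results of these libraries already known, so their own levels and differences are given below as a description, without p-values. The libraries come from A549 and H1650, established human lung cancer lines. For each line there were 3 libraries of cells labelled untreated and 3 of cells labelled as over-expressing SRSF2, a splicing factor of the serine/arginine-rich (SR) family. Untreated libraries also carry the letters NC in their names, which are not explained, so whether those cells received an empty construct is not known. No library carries a second agent or genotype in its labels, and neither the way SRSF2 was raised, nor the use of clones or pools, nor the time of harvest is given in the sources used here. The RNA level of SRSF2 was not analysed here, so the labelled over-expression was not checked. The labels give the molecule as polyadenylated RNA, while the series text speaks of total RNA.

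NEAT1 is the scaffold of paraspeckles, nuclear bodies that form around its long transcript. The locus also gives a short polyadenylated transcript that shares the 5′ end of the long one. MALAT1 gathers in nuclear speckles, which hold splicing factors of the SR family. The MALAT1 transcript and the long NEAT1 transcript are cut before a small tRNA-like RNA, and their 3′ ends are protected by a triple helix of U-rich and A-rich stretches in place of a poly(A) tail. PVT1 lies downstream of the MYC oncogene and is often amplified with it in cancer. LINC-PINT is a p53-induced RNA described to act with Polycomb repressive complex 2.

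NEAT1 (ENSG00000245532) covers 22767 bases of GRCh38 chromosome 11, from 65422774 to 65445540 on the plus strand, and MALAT1 (ENSG00000251562) covers 8829 bases further along the same strand, from 65497688 to 65506516. In GENCODE 29 the exons of NEAT1, over 8 transcripts, merge into 1 block without a gap, and so do those of the 17 MALAT1 transcripts. LINC-PINT (ENSG00000231721) spans 171214 bases of chromosome 7, from 130938963 to 131110176 on the minus strand, of which 9030 are exonic over 22 transcripts.

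The 3′ ends of NEAT1 and MALAT1 are shown because the labels give polyadenylated RNA and these ends are known to lack a poly(A) tail. Whether total RNA was sequenced, as the series text has it, is not settled here. The lines below are GRCh38 sequence of chromosome 11, plus strand, with runs of at least 5 T or 5 A in capitals. They hold the last 100 bases of the long NEAT1 transcript (65445441 to 65445540), the 58 bases of the tRNA-like RNA that follows (65445541 to 65445598), the 100 bases of the MALAT1 transcript before its tRNA-like RNA (65506017 to 65506116) and the 57 bases of that RNA (65506117 to 65506173).
NEAT1 end: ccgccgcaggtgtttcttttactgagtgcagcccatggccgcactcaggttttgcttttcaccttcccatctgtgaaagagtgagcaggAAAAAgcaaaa
NEAT1 tRNA-like RNA: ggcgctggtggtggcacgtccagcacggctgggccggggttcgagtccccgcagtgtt
MALAT1 end: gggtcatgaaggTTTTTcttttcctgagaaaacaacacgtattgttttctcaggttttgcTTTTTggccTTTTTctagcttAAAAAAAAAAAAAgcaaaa
MALAT1 tRNA-like RNA: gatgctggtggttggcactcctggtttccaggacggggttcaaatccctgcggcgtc
The 2 windows end in the same 11 bases (AAAAAgcaaaa), directly before the tRNA-like RNAs. The MALAT1 window holds 3 runs of at least 5 T and the NEAT1 window 0. This cut-off leaves the T-rich stretches of the NEAT1 window (tttctttt and ttttgctttt) unmarked, so the count does not mean that U-rich stretches are absent there. An alignment of the tRNA-like RNAs had 40 identical bases, 70.2% of the shorter one.

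The short NEAT1 transcript is a different kind of molecule for an assay of polyadenylated RNA. The last 60 bases before its end (65426454 to 65426513, plus strand) are shown with the AATAAA polyadenylation signal in capitals.
NEAT1 short end: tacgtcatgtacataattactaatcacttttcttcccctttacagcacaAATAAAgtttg
The counts are 1 number per gene, so every NEAT1 value below sums both transcripts, and a change in their balance was not measured.

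Total counts ran from 23876899 to 32079027 per library, where 3 counts equal 0.0935 to 0.126 counts per 1e+06 counts (CPM) by plain totals, far below every value of the 4 genes. Levels are CPM scaled with TMM, a correction of library totals for differences in RNA composition. Differences are log2 fold changes from an edgeR quasi-likelihood fit of all 12 libraries with a standard error (SE), and a gene is called at a Benjamini-Hochberg adjusted p under 0.05 over all genes tested. Whether the 3 libraries of a group are separate cultures is not stated, so the spread and all p-values may be those of technical replicates. The common coefficient of variation was widest among H1650 SRSF2 libraries (0.0560, against 0.0298 to 0.0342 in the other groups). Among markers, 7 of 8 epithelial genes were measured, with a summed level of 9502 to 10985 CPM over all libraries. In untreated A549 this sum came mainly from KRT7, KRT8 and KRT18 (2807, 5008 and 1884 CPM). KRT19 (97.9), CDH1 (38.2), EPCAM (5.72) and CLDN4 (4.36) were far lower there. In untreated H1650 these averaged 1304, 1309, 307 and 596 CPM in the same order. Markers of other cell types were low: 2 of 7 fibroblast genes measured (8.63 to 22.7 CPM), 1 of 8 leukocyte genes (0.218 to 6.58 CPM), 1 of 6 endothelial genes (1.94 to 5.48 CPM) and 0 of 5 erythroid genes.

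NEAT1 was several times higher with SRSF2 in H1650, with no difference called in A549. In untreated H1650 it measured 1016, 936 and 968 CPM (973 ± 40.3, SD, n = 3), and in H1650 SRSF2 libraries 3394, 3228 and 2994 CPM (3205 ± 200.5, n = 3). The lowest SRSF2 library lay far above the highest untreated one. The log2 fold change was 1.72 (SE 0.038, approximate 95% interval 1.64 to 1.80), or 3.29-fold. In A549 the untreated libraries gave 719, 732 and 732 CPM and the SRSF2 libraries 735, 727 and 743 CPM. These groups overlapped, with a log2 fold change of 0.01 (SE 0.037, interval -0.06 to 0.09), and the sign of this value turned with DESeq2 size factors (-0.0071). Whole cultures were sequenced, so more cells with a transcript and more transcript per cell cannot be told apart, here or for any gene below.

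MALAT1, the neighbour of NEAT1, had the opposite arrangement, with a modest rise in A549 and none detectable in H1650. The untreated A549 libraries gave 261, 282 and 261 CPM and the SRSF2 libraries 341, 355 and 333 CPM, without overlap. Its log2 fold change there was 0.36 (SE 0.041, interval 0.27 to 0.44), or 1.28-fold. In H1650 the level was 518, 527 and 472 CPM without and 539.8, 523 and 506 CPM with SRSF2. The highest untreated library exceeded 2 of the SRSF2 libraries. The log2 difference of 0.05 (SE 0.041) had an interval of -0.03 to 0.13, so a change in H1650 as large as that in A549 lies outside it. Its sign turned with plain library totals (-0.033), on deposited FPKM (-0.031) and without H1650 untreated replicate 3 (-0.0022).

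PVT1 (ENSG00000249859) spans 306721 bases of chromosome 8, from 127794533 to 128101253 on the plus strand, of which 5493 are exonic over 25 transcripts. It was higher with SRSF2 in A549. Its untreated libraries measured 112, 99.2 and 94.5 CPM and its SRSF2 libraries 160.5, 153 and 149.6 CPM, and the groups were separate. This was a log2 fold change of 0.60 (SE 0.048, interval 0.50 to 0.70), or 1.52-fold. In H1650 the untreated libraries gave 71.0, 67.5 and 72.3 CPM and the SRSF2 libraries 75.7, 75.5 and 76.4 CPM. These groups did not overlap either, but they lay close together. The log2 fold change of 0.11 (SE 0.0504, interval 0.01 to 0.21) was not called. It passed the threshold when only H1650 libraries were fitted (log2 0.13), with the replicate block (0.11) and without A549 untreated replicate 1 (0.1094) or 3 (0.1092). It shrank to 0.032 with plain library totals, and to 0.0059 on log2(FPKM + 1) and 0.022 on log2(FPKM + 0.1), without a call. In A549 the value on log2(FPKM + 1) was 0.18.

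LINC-PINT was higher with SRSF2 in both lines, more so in H1650. In A549 it went from 23.4, 22.3 and 20.3 CPM in untreated to 43.1, 37.5 and 37.0 CPM in SRSF2 libraries. Every SRSF2 library lay above every untreated one, with a log2 fold change of 0.83 (SE 0.073, interval 0.68 to 0.98), or 1.78-fold. In H1650 it went from 12.4, 13.2 and 15.3 CPM to 57.2, 52.0 and 49.3 CPM. The log2 fold change of 1.95 (SE 0.0755, interval 1.80 to 2.11), or 3.87-fold, was the largest of the 4 genes. On deposited FPKM, which are low for this gene, the pseudocount shrinks these values: log2(FPKM + 1) gave 0.13 in A549 and 0.26 in H1650, and log2(FPKM + 0.1) gave 0.53 and 1.13, all called. LINC-PINT shares exonic bases with other genes: 81 with MKLN1 on the other strand, 699 (7.74% of its exonic bases) with AC058791.1 on the other strand and 1958 (21.7%) with AC016831.6 on its own strand. Whether counting used the strand is not given in the sources used here, so part of the LINC-PINT count may be shared with these genes.

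**Figure D1:**
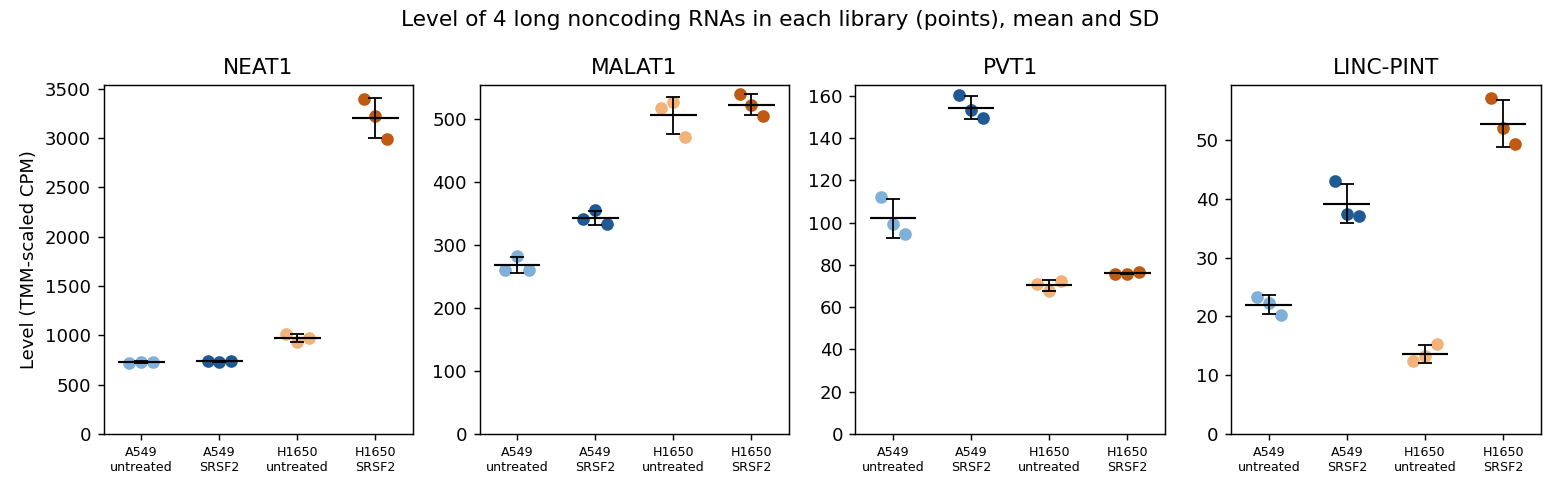
Level of each gene (vertical axes, TMM-scaled CPM, each from 0) in the 4 groups on the horizontal axes. Points are the 3 libraries of a group, and lines with bars are the mean and SD. NEAT1 stands apart in H1650 SRSF2 libraries (2994 to 3394 CPM), while LINC-PINT is higher with SRSF2 in both lines.

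In A549, 3 of the 4 genes were called, all higher (MALAT1, PVT1 and LINC-PINT), where 32.3% of all genes tested were called and 16.4% were called higher. In H1650, 2 of 4 were called, both higher (NEAT1 and LINC-PINT), where 62.3% of all genes were called and 31% were called higher. Groups did not overlap for 3 of the 4 genes in A549 and 3 of 4 in H1650, against 45.6% and 64.7% of all genes. The genes were picked on these contrasts, so nothing is read from the counts. The fold change of LINC-PINT ranked 521 from the top among 15991 genes in A549 and 424 in H1650, and that of NEAT1 ranked 7643 and 580.

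**Figure D2:**
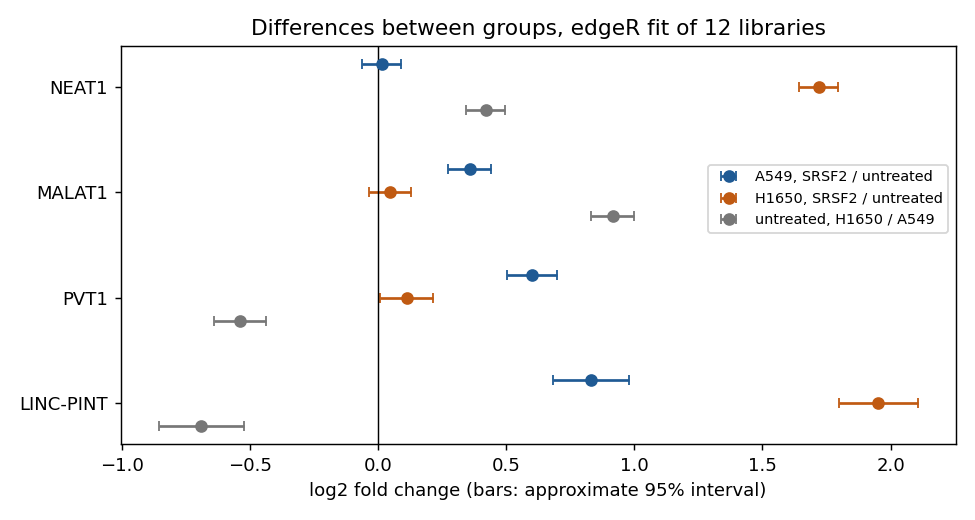
Log2 fold change of each gene (horizontal axis) for SRSF2 against untreated cells in A549 (blue) and H1650 (orange), and for untreated H1650 against untreated A549 (grey). Points are edgeR estimates and bars approximate 95% intervals, and the orange points of NEAT1 (1.72) and LINC-PINT (1.95) lie farthest to the right.

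The difference between the SRSF2 contrasts, A549 minus H1650, was called for all 4 genes, where 47.5% of all genes were called, 24% as higher and 23.5% as lower. For NEAT1 it was -1.71 (SE 0.053, interval -1.81 to -1.60) and for LINC-PINT -1.12 (SE 0.106, interval -1.34 to -0.90), both lower in A549. MALAT1 (0.31, SE 0.058, interval 0.19 to 0.43) and PVT1 (0.49, SE 0.0695, interval 0.35 to 0.63) had the larger change in A549. Thus 2 of the genes differed in 1 direction and 2 in the other.

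Before any over-expression the lines already differed in all 4 genes. Untreated H1650 cells held more NEAT1 (log2 0.42, SE 0.037, 1.34-fold) and more MALAT1 (log2 0.92, SE 0.041, 1.89-fold) than untreated A549 cells. They held less PVT1 (log2 -0.54, SE 0.0495) and less LINC-PINT (log2 -0.69, SE 0.081). All 4 were called and in all 4 the groups were separate, where 82.4% of all genes were called (40.1% higher, 42.3% lower in H1650) and 84% had separate groups. This comparison uses the same untreated libraries as the SRSF2 contrasts.

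NEAT1 and MALAT1 had the same order of group means, with different overlaps. For NEAT1 the A549 groups came lowest and overlapped, followed by untreated H1650 and then H1650 SRSF2. For MALAT1 untreated A549 was lowest, A549 SRSF2 next, and the H1650 groups highest and overlapping. For PVT1 both H1650 groups lay below both A549 groups. For LINC-PINT untreated H1650 was lowest and H1650 SRSF2 highest, with both A549 groups between them and no overlap between any neighbours in the order.

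Compared per full exonic length, NEAT1 and MALAT1 gave similar values in untreated A549 cells. On a scale of CPM per kb of exonic length, NEAT1 gave 31.96 ± 0.313, MALAT1 30.3 ± 1.39, PVT1 18.6 ± 1.66 and LINC-PINT 2.44 ± 0.173 (n = 3). In untreated H1650 the per-length level of MALAT1 (57.3 ± 3.34) was above that of NEAT1 (42.8 ± 1.77). In H1650 SRSF2 libraries NEAT1 (141 ± 8.81) was above MALAT1 (59.2 ± 1.94), so their order on this scale was turned around. PVT1 (13.8 ± 0.0818) and LINC-PINT (5.85 ± 0.441) came nearer to each other there than in untreated H1650 cells (12.8 ± 0.455 and 1.51 ± 0.167). The lengths matter. The deposited FPKM divide PVT1 by 306721 bases, 55.8 times its exonic length, and LINC-PINT by 168417 bases, 18.7 times its exonic length. Deposited FPKM thus place both genes far lower than exonic length does. Whether the counts include reads in introns is not given in the sources used here. If they do, the exonic scale places PVT1 and LINC-PINT too high. NEAT1 was divided by its full exonic length, although its counts sum the long and the short transcript. If much of its count comes from the short transcript, this scale places NEAT1 too low. Its order with MALAT1 in any group may then differ from that given here.

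Ratios of raw counts within a library are free of any scaling between libraries. The NEAT1 to MALAT1 ratio was 2.76, 2.59 and 2.80 in untreated A549 libraries and 2.15, 2.05 and 2.23 in A549 SRSF2 libraries. In H1650 it was 1.96, 1.78 and 2.05 without and 6.29, 6.17 and 5.92 with SRSF2. The ratio was thus lower with SRSF2 in A549 and higher in H1650, with no overlap in either line. The LINC-PINT to PVT1 ratio went from 0.216 ± 0.00817 to 0.254 ± 0.0130 in A549 and from 0.194 ± 0.0186 to 0.696 ± 0.0551 in H1650 (n = 3 per group).

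**Figure D3:**
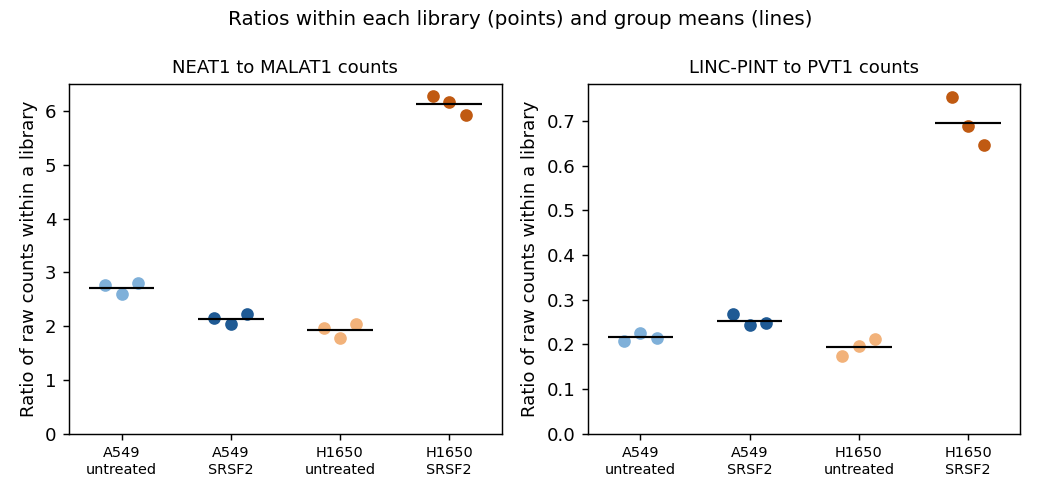
Ratios of raw counts within each library for NEAT1 to MALAT1 and LINC-PINT to PVT1 (vertical axes, no unit, from 0) in the 4 groups. Points are libraries and lines group means. Both ratios are highest in H1650 SRSF2 libraries, with means of 6.13 and 0.696.

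Among long noncoding RNA genes, NEAT1, MALAT1 and PVT1 ranked near the top by level, and LINC-PINT ranked lower. NEAT1 had the highest CPM of 1960 tested genes of this class in every group, and by level per exonic kb it ranked 14 in untreated A549 and 2 in H1650 SRSF2 cells. MALAT1 ranked 16 per exonic kb in both A549 groups and 7 in both H1650 groups. PVT1 ranked between 21 (A549 SRSF2) and 54 (H1650 SRSF2). LINC-PINT moved from 374 to 221 in A549 and from 553 to 145 in H1650, always above the class median of 0.687 to 0.792 CPM per kb. Ranks per exonic kb have the same limits, from any reads in introns and, for NEAT1, from its short transcript.

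The chromosome 11 genes around NEAT1 and MALAT1 were called in both directions, as were all genes. Of 13 neighbours tested, 2 were called higher and 2 lower in A549, and 4 higher and 3 lower in H1650. Medians were 0.00 and 0.19 (all genes 0.00 in both lines). These are 30.8% and 53.8% of the neighbours, against 32.3% and 62.3% of all genes called. LTBP3, which encodes a protein that binds latent TGF-beta and starts 136 kb from the start of NEAT1, rose in H1650 (194 ± 4.89 to 336 ± 8.55 CPM, or 0.79 on the log2 scale, SE 0.037, edgeR adjusted p = 2.89e-19) and measured log2 0.00 in A549 (SE 0.0385). The nearest neighbours tested upstream, FRMD8 (-0.47, edgeR adjusted p = 2.04e-08) and SLC25A45 (-0.57, edgeR adjusted p = 9.86e-07), fell in H1650. MAP3K11 (0.21) and the chromatin factor DPF2 (0.40) rose in H1650 as well. POLA2, a subunit of DNA polymerase alpha, fell in both lines (-0.46 in A549, -0.34 in H1650). In A549 DPF2 (0.27) and SLC25A45 (0.20, edgeR adjusted p = 0.0465) rose and MAP3K11 fell (-0.16). The A549 count of 2 higher dropped to 1 with DESeq2 size factors, plain totals, DESeq2, the replicate block, or without any of A549 untreated replicates 1, 2 and 3, A549 SRSF2 replicates 2 and 3 or H1650 untreated replicate 1.

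**Figure D4:**
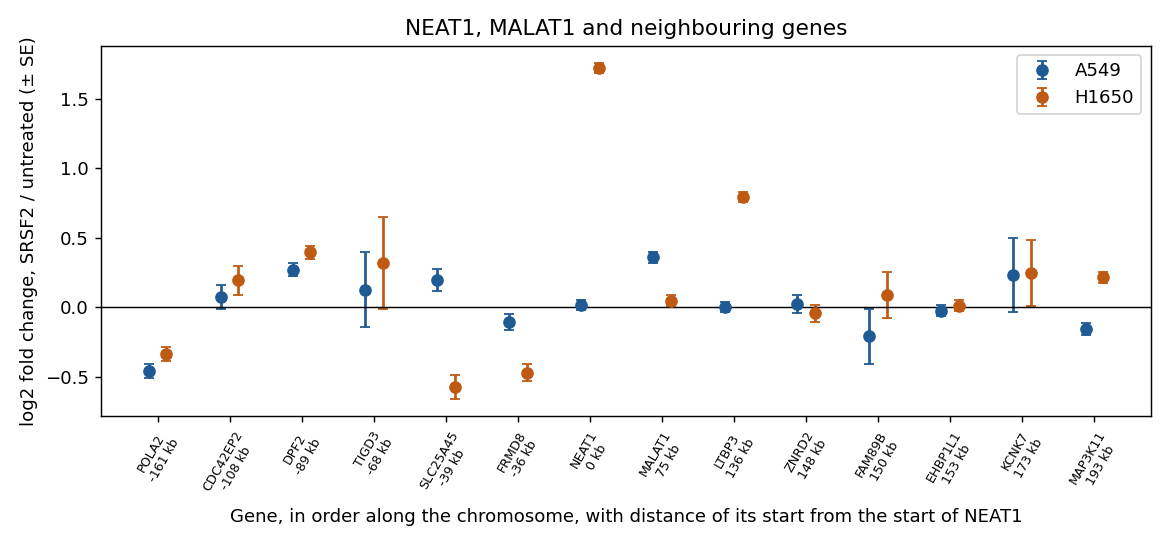
Log2 fold change of SRSF2 against untreated cells (vertical axis, bars are SE) for NEAT1, MALAT1 and 12 of the neighbouring genes in chromosome order, with the distance of each start from that of NEAT1 in kb. Blue is A549 and orange H1650. NEAT1 in H1650 (1.72) lies above all the neighbours plotted, of which LTBP3 (0.79) is the next highest.

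MYC, whose start lies 59 kb upstream of PVT1, encodes a transcription factor that drives growth, and it rose in both lines. It went from 195 ± 1.54 to 238 ± 2.46 CPM in A549 (0.29 on the log2 scale, SE 0.0445, edgeR adjusted p = 3.63e-06), and it went from 99.5 ± 4.80 to 213 ± 17.6 CPM in H1650 (log2 1.09, SE 0.046, edgeR adjusted p = 1.58e-20). MYC thus had the larger change in H1650 (A549 minus H1650 -0.80), while PVT1 had the larger change in A549. Of the 5 neighbours of PVT1 that were tested, 2 were called higher in each line (MYC and ASAP1, at 0.23 and 0.33). In A549 0 were called lower, and in H1650 1 was (CYRIB, -0.38). Over all genes tested, 16.4% were called higher and 15.9% lower in A549, and 31% and 31.3% in H1650. CYRIB in A549 (-0.10, edgeR adjusted p = 0.0606) was also called lower, making 1, with DESeq2 size factors, plain totals, DESeq2, A549 libraries alone, or without H1650 SRSF2 replicate 1. The noncoding neighbours CASC8 (-0.05 and 0.42) and CASC11 (0.62 and 0.74) were not called in either line. CASC11 stood at 0.229 to 0.457 CPM on average.

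At the LINC-PINT locus, the protein-coding MKLN1 begins at the LINC-PINT start on the opposite strand. MKLN1 rose from 101 ± 4.15 to 139 ± 4.63 CPM in A549 (0.46 on the log2 scale, SE 0.042, edgeR adjusted p = 1.19e-10), and it went from 65.8 ± 1.16 to 73.6 ± 2.24 CPM in H1650 (log2 0.16, SE 0.045, edgeR adjusted p = 0.00206). With plain library totals the H1650 call was lost (0.08). Its change in H1650 was far smaller than the 1.95 of LINC-PINT. PODXL, which encodes podocalyxin, a sialomucin of the cell surface, and starts 448 kb away, rose by 0.45 in A549 and 2.53 in H1650 (29.03 ± 0.399 to 168 ± 11.7 CPM, edgeR adjusted p = 7.72e-30). On the other side, COPG2 fell in both lines (-0.26 and -0.78), and MEST (-0.48) and CEP41 (-0.25) fell in H1650. In all, 2 of 5 neighbours were called higher in each line, with 1 lower in A549 (COPG2, 0 without A549 SRSF2 replicate 3) and 3 lower in H1650. Among all genes tested, 16.4% were called higher and 15.9% lower in A549, and 31% and 31.3% in H1650.

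The LINC-PINT start at MKLN1 is shown because MKLN1 begins beside it and both genes were measured. The 300 bases below, from 250 before to 50 after a RefSeq start, are GRCh38.p14 chromosome 7, 131109876 to 131110175, minus strand, with matches to GGGCGG on either strand in capitals.
LINC-PINT promoter: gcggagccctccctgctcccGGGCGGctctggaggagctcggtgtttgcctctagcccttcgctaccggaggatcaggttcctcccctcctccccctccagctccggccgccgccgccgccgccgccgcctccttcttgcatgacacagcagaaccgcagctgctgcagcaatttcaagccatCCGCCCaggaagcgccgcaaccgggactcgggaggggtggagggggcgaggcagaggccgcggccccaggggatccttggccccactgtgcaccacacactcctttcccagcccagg
GGGCGG, the core of a GC box, is found in 45% of 35116 RefSeq promoters of this length. This window has 2 matches and a GC content of 70.3%. A p53 binding site (its 10-base repeat unit), searched on both strands, is not in these letters, and 6.63% of all promoters hold it. RefSeq promoters were matched for LINC-PINT (4 starts) and MALAT1 (2 starts).

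Paraspeckle proteins, the protein partners of NEAT1, were called in both directions, as were all genes. Of 33 tested members, 9 were called higher and 5 lower in A549, and 13 higher and 13 lower in H1650, with medians of 0.02 and 0.01. These are 42.4% and 78.8% of the list, against 32.3% and 62.3% of all genes called. The A549 count of 5 lower fell to 2 or 3 without any 1 of the 6 A549 libraries. Of the core proteins that bind NEAT1, NONO rose in H1650 (399 ± 1.70 to 509 ± 5.17 CPM, or 0.35 on the log2 scale, SE 0.032, edgeR adjusted p = 1.65e-11). The protein SFPQ measured 0.10 there (SE 0.0385, edgeR adjusted p = 0.027), a call lost with plain totals (0.02) and upper quartile scaling (0.08). PSPC1 measured 0.02 in both lines (edgeR adjusted p = 0.831 and 0.776). In A549, NONO and SFPQ both measured -0.07 and were not called, although NONO was with DESeq2 size factors (-0.09).

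Other members of that list had larger differences. AKAP8L, a nuclear member of the A-kinase anchor family, rose by 0.38 in A549 and 0.84 in H1650. The RNA-binding protein EWSR1 rose by 0.14 and 0.48. SMARCA4, the ATPase of SWI/SNF chromatin remodelling complexes, rose in A549 from 33.2 ± 2.83 to 46.6 ± 2.14 CPM (0.49, edgeR adjusted p = 7.15e-09) and fell in H1650 from 279 ± 4.86 to 221 ± 8.27 CPM (log2 -0.34, edgeR adjusted p = 2.3e-08). ZC3H6 had the same pair of directions (1.41 and -0.57). HNRNPUL1 fell in H1650 (-0.50).

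Nuclear speckle proteins, which share the compartment of MALAT1, were called in both directions too. Of 22 tested, 6 rose and 3 fell in A549 (40.9% called, all genes 32.3%), and 8 rose and 7 fell in H1650 (68.2%, all genes 62.3%). The A549 count of 6 was 2 without A549 untreated replicate 1 and 3 without A549 untreated replicate 2 or SRSF2 replicate 2, and the H1650 count of 8 was 5 with plain totals. CLK1, a kinase of SR proteins, rose from 37.4 ± 1.61 to 59.1 ± 1.00 CPM in A549 and from 48.2 ± 2.68 to 117 ± 7.85 CPM in H1650 (log2 0.66 and 1.27). SRSF7, another SR protein, fell in A549 (-0.26, edgeR adjusted p = 1.74e-06) and measured 0.05 in H1650. PNN rose (0.56) and THRAP3 fell (-0.39) in H1650.

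Of 11 genes for making or binding the MALAT1 3′ end, 1 was called higher and 4 lower in A549, and 5 higher and 2 lower in H1650. All genes gave 16.4% higher and 15.9% lower in A549, and 31% and 31.3% in H1650. In H1650 the 2 lower became 5 with plain totals and 1 without H1650 untreated replicate 3. METTL16, a methyltransferase that binds the triple helix shown above, was the member that rose in A549 (106 ± 0.501 to 121 ± 2.07 CPM, log2 0.19, SE 0.041, edgeR adjusted p = 4.21e-04). Its H1650 value was -0.09 (edgeR adjusted p = 0.099), and with plain totals it was called lower there (-0.17). POP7 (0.40) and RPP30 (0.43), subunits of RNase P, the enzyme that cuts before the tRNA-like RNA, rose in H1650. MALAT1 itself was not called in that line (0.05).

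Polycomb repressive complex 2 methylates histone H3, and of its 12 tested subunits and cofactors 3 rose and 4 fell in A549, while 8 rose and 3 fell in H1650 (medians -0.04 and 0.27). All genes gave 16.4% higher and 15.9% lower in A549, and 31% and 31.3% in H1650, against 25% and 33.3%, and 66.7% and 25%, of this list. The catalytic subunit EZH2 fell in A549 (-0.20, edgeR adjusted p = 9.56e-04) and rose in H1650 (0.25, edgeR adjusted p = 2.29e-05). SUZ12 (0.34), AEBP2 (0.90) and MTF2 (0.98) rose in H1650. The histone-binding RBBP4 (-0.20 and -0.34) and RBBP7 (-0.21 and -0.22) and the cofactor PHF19 (-0.25 and -0.15) fell in both lines. AEBP2 (0.28) rose in A549 too.

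Other long noncoding RNAs, listed from general knowledge of the class, were called in both directions. Of 33 tested, 6 rose and 4 fell in A549 and 9 rose and 9 fell in H1650, with medians of 0.10 and 0.02. These are 30.3% and 54.5% of the list, against 32.3% and 62.3% of all genes. Of the list, 18.2% were called higher and 12.1% lower in A549, and 27.3% and 27.3% in H1650. Of all 1960 long noncoding RNA genes tested, 10.7% were called higher and 4.64% lower in A549, and 20.4% and 19% in H1650. None of these differences was tested. MEG3 (0.55 and 1.72), MIR100HG (0.45 and 0.99) and LINC00511 (0.33 and 0.22) rose in both lines, MEG3 from only 0.359 ± 0.190 to 1.22 ± 0.430 CPM in H1650. CRNDE fell in H1650 from 47.5 ± 1.67 to 19.4 ± 1.76 CPM (-1.29), and TINCR (-0.97) and OIP5-AS1 (-0.67) fell there as well. OIP5-AS1 also fell in A549 (-0.18, edgeR adjusted p = 0.00168). TUG1 rose in A549 (0.17) and measured -0.08 in H1650, a value called lower with plain totals (-0.16). NORAD, an abundant cytoplasmic RNA, was not called in either line (0.07 and 0.03, the latter of opposite sign with plain totals, -0.05).

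Genes listed for RNAs without a poly(A) tail, mostly replication-dependent histone genes, were measured beside the 4 genes. The list held 53 genes, and 20 were in the count table. The counts do not separate transcripts with and without a tail, so which form of these RNAs was counted is not known. Of 19 tested, 8 were called higher and 0 lower in A549 and 17 higher and 0 lower in H1650, with medians of 0.39 and 1.53. All genes gave 16.4% higher in A549 and 31% higher in H1650. The other 11 in A549 were not called, among them H2AC20 (-0.49) and H2BC12 (-0.06), named after their values were seen. All 20 measured members together gave 116 to 118 CPM in untreated A549, 142 to 143 in A549 SRSF2, 299 to 327 in untreated H1650 and 587 to 714 in H1650 SRSF2 libraries. In H1650, H2AC6 (1.84), H2BC5 (1.92) and H2BC21 (1.81) were the members with the smallest adjusted p, and their reads may be shared with near-identical copies. The summed level of the 20 measured members was thus higher with SRSF2 in both lines. The part of RNA without a poly(A) tail in the NEAT1 and MALAT1 differences was not tested.

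The genes whose profile over the 12 libraries lay nearest to each of the 4 were found among 10799 genes by the root mean square difference of centred log2 CPM, as a description. For NEAT1 they were RHEBL1 (0.125), MIR23AHG (0.129) and the receptor tyrosine kinase EPHA2 (0.130). RHEBL1 averaged 2.48 and 2.93 CPM in the A549 groups and 3.39 and 13.2 CPM in the H1650 groups, without and with SRSF2. It met the required mean of 5 CPM only through the H1650 SRSF2 libraries, where NEAT1 is highest as well. EPHA2 averaged 356 and 439 CPM in the A549 groups and 488 and 1558 CPM in the H1650 groups. For MALAT1 they were the chromatin remodeller CHD7 (0.0576), SEC31A (0.0589) and USP42 (0.0698). CHD7 averaged 51.4 and 63.3 CPM in A549 and 101 and 98.9 CPM in H1650, without and with SRSF2. For PVT1 they included MKLN1 (0.0964) and SCAND2P (0.131). MKLN1, the divergent neighbour of LINC-PINT, was thus nearest in profile to PVT1 on another chromosome. For LINC-PINT they were the kinase IRAK2 (0.132), NCEH1 (0.212) and FGD6 (0.215). IRAK2 averaged 38.6 and 68.3 CPM in A549 and 29.2 and 99.0 CPM in H1650. By Pearson correlation instead, CHD7, IRAK2 and FGD6 stayed among the nearest 3 of their genes, and NEAT1 had ZFAND2A, XBP1 and ZFP36. Much of this likeness follows from the 4 group means, which all 12 libraries share.

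Transcript composition differed among the 4. The longest NEAT1 transcript (22743 bases) has a GC content of 44.1%, that of MALAT1 (8708 bases) 40.3%, that of PVT1 (1699 bases) 52.2% and that of LINC-PINT (3505 bases) 47.6%, against a median of 48.7% over 16062 genes. The letters CCNG and GGNG, which SRSF2 is known to bind in RNA, were counted on the transcript strand. CCNG occurred 14.6 times per kb in NEAT1, 9.42 in MALAT1, 26.5 in PVT1 and 21.1 in LINC-PINT (median of all genes 19.9). GGNG occurred 18.6, 21.9, 16.5 and 18.3 times per kb in the same order (median 18.5). With 4 genes, no relation between these densities and the differences was computed.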

How the data were processed

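RNA-seq gave 12 libraries (polyadenylated RNA per the labels, total RNA per the series text), whose groups follow the labelled line and treatment. The authors deposited raw gene counts. The submitters' processing notes name the build GRCh38 and the tools featureCounts 2.0.0, STAR 2.7.7a and fastp 0.20.1. The annotation release and strandedness are not given in the sources used here. The deposited FPKM equal count over column total and 1 length per gene (largest relative difference 9.7e-15) and served only in alternatives. Their length for PVT1 and LINC-PINT includes introns. Symbols came from a gene name table for 16076 IDs and from GENCODE 29 for 63, and 460 IDs have none.

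Tests used edgeR 4.0.16 (R 4.3.3) on the counts (filterByExpr, TMM, 1 mean per group, quasi-likelihood F test, Benjamini-Hochberg over 15991 genes, threshold 0.05). The SE was obtained by dividing the size of a log2 fold change by the root of its F, so it is approximate. Alternatives used DESeq2 1.42.0, limma 3.58.1 on log2(FPKM + 1) and log2(FPKM + 0.1), other scalings, no filter, a replicate block, 1 line alone, and each library left out. Likeness used genes of at least 5 CPM and a pseudocount of 0.5. The procedure was tested on simulated data. Of 15991 genes, 50 were changed at each fold (1.25, 1.5, 2 and 4), by the same fold in both lines. This is a far smaller share than was called in the data, so the shares below may not hold for these contrasts. At its first run the procedure recovered fewer 4-fold changes than had been required, the misses being genes of low counts. The requirement was then limited to genes of at least 5 CPM. Of all 4-fold changes made, it recovered 92% in A549 and 86% in H1650, and 100% in each line at 5 CPM or more. Smaller changes were recovered less: 46% at 1.25-fold in each line, and 60% (A549) and 64% (H1650) at 1.5-fold. At 5 CPM or more these were 79.3% and 73.3% (1.25-fold) and 93.3% and 96.7% (1.5-fold). False calls made up 7.1% of calls in A549, above the threshold of 0.05, and 2.08% in H1650.

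Genes named in the text were the 4 genes, MYC, tested neighbours, up to 3 members per list and line with the smallest adjusted p, further well-known members, and the 3 nearest profiles per gene. Some items are not reported here. The 4 genes and all lists were chosen with earlier results of these data known. The lncRNA class ranks and transcript composition were added after the data were seen.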

Additional observations from a re-analysis of the deposited data

Results flagged for a closer look

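The SRSF2 contrast differed between the lines for 42 of the 4 genes, their neighbours and the listed genes named above. This was by the edgeR test of the difference itself (A549 minus H1650, adjusted p under 0.05), which calls 47.5% of all genes tested. Genes named only for a near profile were not screened. H2BC12, named after its values were seen, is not in this count but differed too (-0.69, edgeR adjusted p = 4.88e-11). Among the 4 long noncoding RNAs the values were NEAT1 (-1.71), MALAT1 (0.31), PVT1 (0.49) and LINC-PINT (-1.12) on the log2 scale. The 4 were chosen with these differences known, so their values are a description.

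The change was more negative in A549, or more positive in H1650, for partners, neighbours and other listed genes. The widest of these differences were MTF2 (-0.96), MYC (-0.80), PODXL (-2.08), MEG3 (-1.17), H2AC6 (-1.21), H2BC21 (-1.25) and H2BC5 (-1.44). Narrower ones were SFPQ (-0.17), NONO (-0.42), AKAP8L (-0.46), EWSR1 (-0.34), CLK1 (-0.61), SRSF7 (-0.31), PNN (-0.52), POP7 (-0.53), RPP30 (-0.46), AEBP2 (-0.62), EZH2 (-0.45), SUZ12 (-0.40), LTBP3 (-0.79), MAP3K11 (-0.37) and MIR100HG (-0.53).

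The change was more positive in A549, or more negative in H1650, for the remaining flagged genes. The widest of these differences were SMARCA4 (0.83), ZC3H6 (1.97), SLC25A45 (0.77), CRNDE (1.14) and TINCR (1.26). Narrower ones were HNRNPUL1 (0.44), THRAP3 (0.36), METTL16 (0.28), RBBP4 (0.14), FRMD8 (0.36), CYRIB (0.29), MKLN1 (0.30), MEST (0.42), COPG2 (0.52), OIP5-AS1 (0.50) and TUG1 (0.25). The causes of these differences between the lines were not tested.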

How the results depend on the processing

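With 3 libraries a group and an approximate SE, small changes of LINC-PINT and PVT1 are the least precise, and the depth is not limiting for the 4 genes. Of 328 alternative values for the 4 genes, 318 kept their direction and side of the threshold, and all 82 counts over all genes stayed within 1.5 times. Sizes moved more. On log2(FPKM + 1), LINC-PINT went from 1.95 to 0.26 in H1650, from 0.83 to 0.13 in A549 and from -1.12 to -0.14 for the difference, and PVT1 in A549 from 0.60 to 0.18 and for the difference from 0.49 to 0.17. Between untreated lines, PVT1 was -0.13 and LINC-PINT -0.07. On log2(FPKM + 0.1), LINC-PINT gave 1.13, 0.53 and -0.60, and -0.37 between untreated lines. These all stayed called, and the pseudocount is not small beside their deposited FPKM. PVT1 in H1650 shrank to 0.032 (plain totals), 0.0059 (FPKM + 1) and 0.022 (FPKM + 0.1). NEAT1 in A549 turned to -0.0071 with DESeq2 size factors and with DESeq2. MALAT1 in H1650 turned to -0.033 with plain library totals and to -0.031 on both log2(FPKM + 1) and log2(FPKM + 0.1), and to -0.0022 without H1650 untreated replicate 3. PVT1 in H1650 passed the threshold with only H1650 libraries (0.13) and without A549 untreated replicate 1 (0.1094) or 3 (0.1092). The cause was not tested. Leaving out 1 library at a time, MALAT1 in H1650 ran from -0.0022 to 0.0747 and PVT1 in H1650 from 0.0797 to 0.13, while LINC-PINT ran from 0.76 to 0.88 in A549 and 1.88 to 2.04 in H1650, and NEAT1 in H1650 from 1.67 to 1.76. Over all genes, A549 calls ran from 4188 to 5510 and H1650 calls from 9297 to 9977. Of 648 list counts under alternatives, 29 moved by more than 1.5 times, each given beside its list. Plain library totals shifted the median gene in H1650 by -0.08 and upper quartile scaling shifted the untreated lines by -0.0972.

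The labels do not say that replicate numbers pair libraries. Correlations of deviations between same-numbered libraries ran from -0.013 to 0.027, and 2 of 6 libraries in each line correlated best with their own number, and libraries were therefore treated as unpaired. With the replicate block, PVT1 in H1650 passed the threshold (log2 0.11), A549 calls went from 5162 to 5146, and H1650 calls from 9957 to 9919. The block changed no other call of the 4 genes.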

Other observations

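The shares of genes called are given for long noncoding RNA genes and protein-coding genes, with no test of the difference. Of 1960 long noncoding RNA genes tested, 10.7% were called higher and 4.64% lower in A549, against 17.9% and 18.5% of 12904 protein-coding genes. In H1650 the shares were 20.4% and 19% against 33.6% and 34.3%. The median level was 1.16 CPM for long noncoding RNA genes and 31.8 CPM for protein-coding genes. The part of that difference in level in the shares called was not tested.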
